A study of Homo sapiens with 18 samples.

Results

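The integrated stress response genes described here are 10 genes of the ATF4 pathway: ATF4, ATF5, DDIT3, PPP1R15A, TRIB3, CEBPG, ASNS, CHAC1, SESN2 and PSAT1. They were taken by name, with no threshold on their values, from 61487 genes counted in every library, and all 10 were found by symbol. The cells were NCI-H1975, an established human lung adenocarcinoma line. In sgDAMP cells the peptide DAMP, which the study assigns to the lncRNA gene DSP-AS1, was knocked out with a guide RNA, and sgControl cells served as their control. The deposited files of the sgDAMP libraries carry the name sgTIAMP instead, and every sgDAMP value here rests on the sample record that ties them to that label. A further condition is labelled Scramble. The labels do not say whether the sgDAMP and sgControl cells were single clones or pools. Each of the 3 conditions has 3 libraries of footprints, the RNA pieces that ribosomes shield from a nuclease in cycloheximide-treated cells, and 3 libraries of poly(A) mRNA. Nothing in the labels says that the libraries came from separate cultures, so the p-values measure only the spread between these libraries.

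In the integrated stress response, kinases that sense amino acid shortage, unfolded proteins, double-stranded RNA or heme shortage phosphorylate the initiation factor eIF2. General initiation falls, while a few mRNAs with upstream open reading frames, ATF4 first among them, are then translated more. The ATF4 protein, a bZIP transcription factor, pairs with C/EBP proteins and switches on genes for amino acid synthesis and transport, redox balance and, under long stress, cell death. Footprints on ATF4 mRNA and the transcripts of its targets are therefore separate readouts of one pathway. The counts are per gene, so footprints on the upstream reading frames and on the main coding sequence of ATF4 were not told apart.

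Libraries held 6207783 to 6864945 footprints assigned to genes in sgDAMP, 6845899 to 7840852 in sgControl and 1035159 to 1302852 in Scramble cells. The mRNA libraries held 17171514 to 17455799 counts in sgDAMP, 17098397 to 17464782 in sgControl and 10859527 to 12424884 in Scramble cells. Protein-coding genes took 76.3% to 76.6% of the footprints of sgDAMP libraries, 78.9% to 79.3% of those of sgControl libraries and 6.37% to 20.2% of those of Scramble libraries. The 3 footprint libraries of sgDAMP cells, and likewise those of sgControl cells, differed for most genes by no more than sampling noise. Over the 99% of genes with the lowest values, the mean chi-square per degree of freedom was 0.910 in sgDAMP and 0.909 in sgControl. Each set was therefore summed and counted as 1 sample. In sgControl footprints 57 genes varied beyond that noise, and ATF4 was the only one of the 10 among them. DSP-AS1, the targeted gene, had 0, 1 and 1 footprints in the sgDAMP libraries and 175, 176 and 216 in the sgControl libraries, with mRNA at 18.6 to 19.4 counts-per-million (CPM) in sgDAMP and 17.2 to 19.2 CPM in sgControl. Scramble cells had 335, 291 and 226 footprints on it, and without the strand setting its reads cannot be told apart from those of DSP on the other strand. The 10 lung and epithelial markers summed to 13790 to 19610 mRNA CPM in sgDAMP libraries, 18900 to 24940 CPM in sgControl libraries and 7234 to 8870 CPM in Scramble libraries. In the mRNA of each condition only 5 of the 10 averaged at least 1 CPM, and SFTPB was at 0 in sgDAMP and Scramble cells. The lung lineage markers NKX2-1 and NAPSA were at 0 in the footprints of all 3 conditions. Fibroblast, leukocyte and endothelial markers summed to at most 15.5 CPM in any library.

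Promoter windows of 250 bases before to 50 bases after a transcript start, from RefSeq on GRCh38.p14, were at hand for all 10 genes. There were 35116 windows, as some genes have several starts, and a gene counted if any of its windows held the element. Positions are given from the start of the matching window, which need not be the outermost start of the gene. They were searched on both strands for the C/EBP-ATF response element TGATGNAA, which ATF4 with a C/EBP partner is known to bind, and for the cAMP response element TGACGTCA, a site of the CREB and ATF families. The first was found in 3 of the 10 genes (CEBPG, ASNS and CHAC1) and in 4.46% of all 27305 genes with a window. The second was found in 1 of the 10, PPP1R15A, and in 2.25% of all genes. No window of the 10 held both. The matches are shown because they are where these 4 genes carry the letters of an element searched for. Each run is 30 bases on the gene's strand, 5′ to 3′, with the matched letters in capitals.
ASNS, chr7:97872458-97872487, minus strand, match at -68 to -61 from the start: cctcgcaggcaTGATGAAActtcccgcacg
CEBPG, chr19:33374060-33374089, plus strand, match at -42 to -35: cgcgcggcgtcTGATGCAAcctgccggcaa
CHAC1, chr15:40953251-40953280, plus strand, reverse complement of the element at -209 to -202: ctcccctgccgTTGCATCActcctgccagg
PPP1R15A, chr19:48872352-48872381, plus strand, match at -58 to -51: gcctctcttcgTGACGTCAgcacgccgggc

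The largest difference among the 10 genes lay in the footprints of ATF4, which were about 6-fold fewer in sgDAMP cells than in sgControl cells. ATF4 (ENSG00000128272, chromosome 22, 39520559 to 39522686) had 483, 535 and 590 footprints in the sgDAMP libraries and 3511, 3473 and 3094 in the sgControl libraries. As CPM these are 77.8, 77.9 and 86.4 in sgDAMP, against 513, 443 and 397 in sgControl. Every sgDAMP library lay below every sgControl library, which for libraries that mostly differ by sampling noise shows the precision of the counts and not the spread between cultures. The summed counts were 1608 in sgDAMP and 10078 in sgControl. With trimmed-mean (TMM) scaling the ratio of sgDAMP to sgControl was 0.155 (exact Clopper-Pearson 95% interval 0.147 to 0.163), which is 6.46-fold lower (6.13 to 6.81). These intervals cover counting error only, and for ATF4 they are narrower than the spread between the sgControl libraries. ATF4 had the 64th lowest ratio of 12509 genes. A difference of 2-fold or more was set as the call, and 1235 of those genes (9.87%) passed it, 750 higher (6%) and 485 lower (3.88%).

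**Figure D1:**
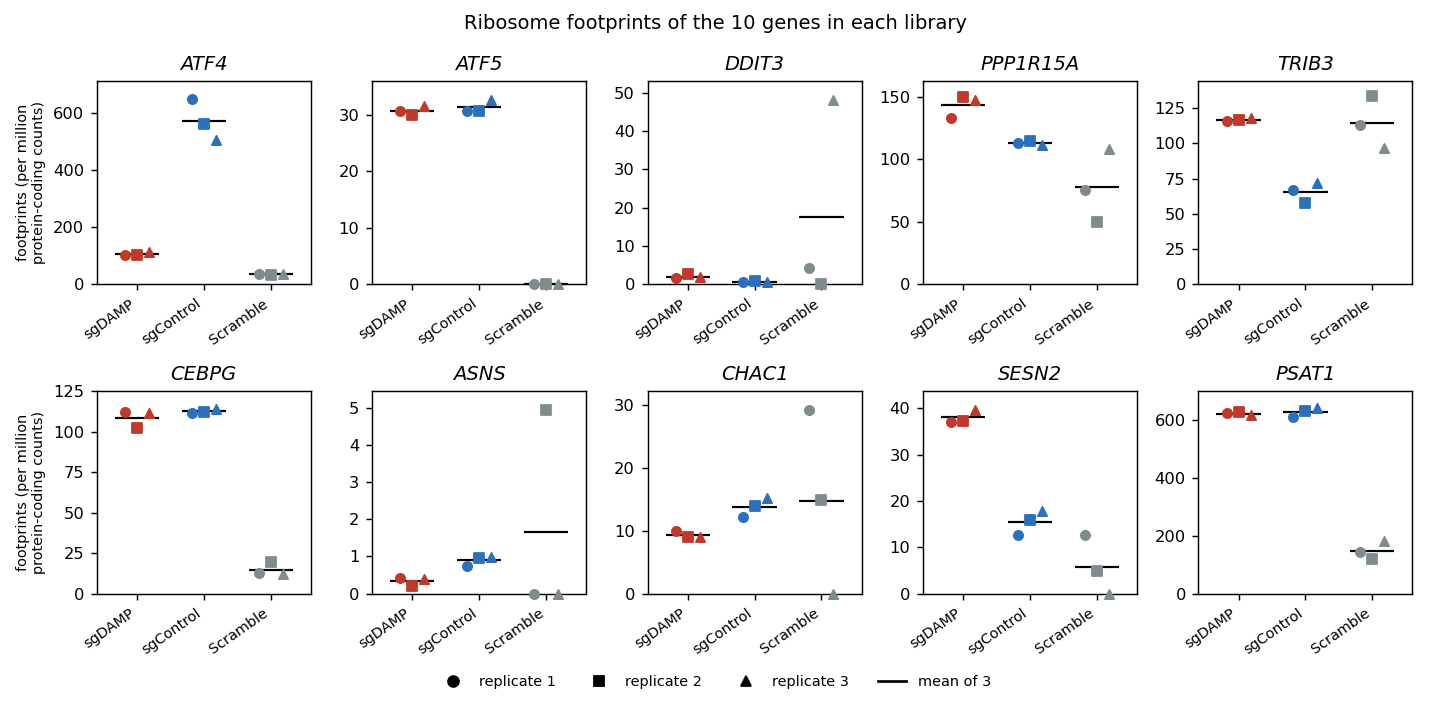
Footprints of each gene, scaled to CPM of the footprints on protein-coding genes (vertical axis, from 0), in each library of sgDAMP, sgControl and Scramble cells; symbols mark the replicate and the line the mean of 3 libraries. ATF4 was low in all 3 sgDAMP libraries relative to sgControl, SESN2 and TRIB3 were higher, and PSAT1, CEBPG and ATF5 lay close together in both; over the summed libraries ATF4 stood at 106 in sgDAMP and 567 in sgControl.

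The other regulators that passed the filter had ratios nearer to 1 than ATF4. ATF5, a bZIP factor that is itself under upstream reading frame control, had 146, 158 and 165 footprints in sgDAMP libraries and 167, 191 and 201 in sgControl libraries, a ratio of 0.814 (0.719 to 0.922). CEBPG, a C/EBP protein that pairs with ATF4, had 531, 536 and 583 footprints in sgDAMP and 607, 695 and 702 in sgControl (ratio 0.799, 0.748 to 0.853). Both counts were somewhat lower in sgDAMP and neither reached 2-fold. PPP1R15A (GADD34), the phosphatase subunit that reverses eIF2 phosphorylation, had 632, 788 and 771 footprints in sgDAMP and 615, 712 and 684 in sgControl, with an interval that includes 1 (ratio 1.06, 0.995 to 1.12). TRIB3, a pseudokinase induced by ATF4 and CHOP that restrains the response, had 550, 612 and 618 footprints in sgDAMP and 362, 358 and 441 in sgControl. Its ratio of 1.49 (1.38 to 1.603) points the other way from that of ATF4. DDIT3 (CHOP), the death-linked factor downstream of ATF4, had 7, 13 and 9 footprints in sgDAMP and 3, 4 and 3 in sgControl. It was below the filter on low counts, and its 29 against 10 footprints correspond to a ratio of 2.81 with a wide interval (1.33 to 6.47).

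Among the target genes, SESN2 footprints were higher in sgDAMP, PSAT1 footprints differed little and ASNS was too thinly counted to place. SESN2 (Sestrin2), a leucine-binding inhibitor of mTORC1, had 176, 196 and 208 footprints in sgDAMP libraries and 69, 98 and 109 in sgControl libraries. The ratio of 2.04 (1.76 to 2.36) lies just inside the 2-fold limit. Without replicate 1 of sgControl or replicate 3 of sgDAMP the log2 ratio was under the limit of 1 (0.92 at the lowest). CHAC1, which degrades glutathione, had 47 footprints in each of the 3 sgDAMP libraries and 66, 86 and 94 in the sgControl libraries. Its ratio of 0.556 (0.449 to 0.687) lies just outside the limit. PSAT1, the aminotransferase of serine synthesis, had 2956, 3299 and 3223 footprints in sgDAMP and 3314, 3906 and 3947 in sgControl, a ratio of 0.824 (0.801 to 0.847). ASNS (asparagine synthetase) had 2, 1 and 2 footprints in sgDAMP and 4, 6 and 6 in sgControl, too few to pass the filter (ratio 0.303, 0.0869 to 0.866).

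In all, 2 of the 8 genes of the list that passed the filter reached 2-fold, ATF4 lower and SESN2 higher, beside the background of 9.87%. Their median log2 ratio was -0.29, against 0.003 over all 12509 genes. Scaling moves the zero point of this comparison: total-count scaling shifted the median gene by 0.22 on the log2 scale, and ATF4 then stood at -2.47 and SESN2 at 1.25. The calls then split into 1167 genes higher and 298 lower, and with upper-quartile scaling into 891 higher and 382 lower, against 750 and 485 with TMM. All 8 genes kept their sign under both, but with total-count scaling PSAT1, ATF5 and CEBPG came to -0.06, -0.08 and -0.11 and PPP1R15A to 0.30, where TMM gave -0.28, -0.30, -0.32 and 0.08. Scaled to the footprints on protein-coding genes, PPP1R15A stood at 144 CPM in sgDAMP and 113 CPM in sgControl, and TRIB3 at 117 CPM in sgDAMP and 65.3 CPM in sgControl.

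The ASNS values are uncertain because the RefSeq gene CZ1P-ASNS spans the gene and the handling of reads in overlapping genes is not given in the sources used here. Its pseudogene copy ASNSP4 held 214 footprints in sgDAMP and 393 in sgControl with 0 mRNA counts in both, more footprints than ASNS itself. DDIT3 overlaps MARS1, and ATF5 overlaps IL4I1 and NUP62, with the same limit. The ATF4 copies ATF4P4 and ATF4P2 held 9 and 16 footprints in sgDAMP, and 63 and 1 in sgControl, few beside ATF4 itself.

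The mRNA of ATF4 did not show the difference seen in its footprints. It stood at 383, 663 and 438 CPM in the sgDAMP libraries and at 432, 382.5 and 618 CPM in the sgControl libraries (494.7 ± 148.5 CPM in sgDAMP and 477 ± 124 CPM in sgControl, SD, n = 3 each). Both groups spread over the same range, and the log2 change was -0.07 (SE 0.30, adjusted p = 0.965 by the quasi-likelihood F test of edgeR). The sign of this value changed with upper-quartile and total-count scaling (0.04 and 0.05). Over all 14032 genes tested 0 passed in mRNA (0%), with 741 at an unadjusted p under 0.05, 21 called by DESeq2 and 0 by limma-voom. Accordingly 0 of the 9 tested members passed, ASNS being below the filter. In 1557 of the 14032 genes (11.1%) the CPM of the groups did not overlap, with sgDAMP higher in 8.07% and lower in 3.02%, and in each of the 10 members they did overlap.

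The other members of the regulator group also spread widely within each condition. ATF5 mRNA stood at 49.2, 27.9 and 34.7 CPM in sgDAMP and 43.1, 46.9 and 29.0 CPM in sgControl (log2 change -0.25, SE 0.30, adjusted p = 0.870). DDIT3 stood at 33.7, 93.3 and 30.7 CPM in sgDAMP and 33.2, 34.3 and 69.8 CPM in sgControl (0.09, SE 0.42, adjusted p = 0.966). In both conditions 1 library was more than 2-fold above the other 2 for DDIT3. PPP1R15A stood at 1754, 889 and 699 CPM in sgDAMP and 1567, 1282 and 1228 CPM in sgControl (-0.47, SE 0.33, adjusted p = 0.862). TRIB3 stood at 855, 420.1 and 581 CPM in sgDAMP and 691, 780 and 523 CPM in sgControl (-0.27, SE 0.31, adjusted p = 0.870). CEBPG stood at 30.2, 49.9 and 20.7 CPM in sgDAMP and 16.4, 20.7 and 35.3 CPM in sgControl (0.35, SE 0.35, adjusted p = 0.865). For each of these genes the lowest and highest sgDAMP libraries enclosed at least 1 sgControl library.

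The targets gave the same picture. CHAC1 stood at 14.4, 13.1 and 20.1 CPM in sgDAMP and 24.5, 20.1 and 19.4 CPM in sgControl, the largest log2 change in size among the 9 (-0.56, SE 0.31, adjusted p = 0.862). SESN2, whose footprints were higher, had mRNA at 138, 56.5 and 87.1 CPM in sgDAMP and 115, 101.5 and 81.4 CPM in sgControl (-0.25, SE 0.32, adjusted p = 0.878). PSAT1 stood at 82.4, 125.6 and 79.0 CPM in sgDAMP and 54.5, 78.7 and 145 CPM in sgControl (-0.06, SE 0.34, adjusted p = 0.970). ASNS was barely counted, at 0.175, 0.859 and 0.231 CPM in sgDAMP and 0.403, 0.526 and 1.15 CPM in sgControl. The median log2 change of the 9 was -0.25, against 0.03 over all genes tested, and it depends on the scaling. With total-count scaling, which shifted the median gene by 0.14, TRIB3, ATF5 and SESN2 came to -0.10, -0.09 and -0.08. ATF4 and PSAT1 then came to 0.05 each, and CHAC1 and PPP1R15A to -0.43 and -0.29.

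**Figure D2:**
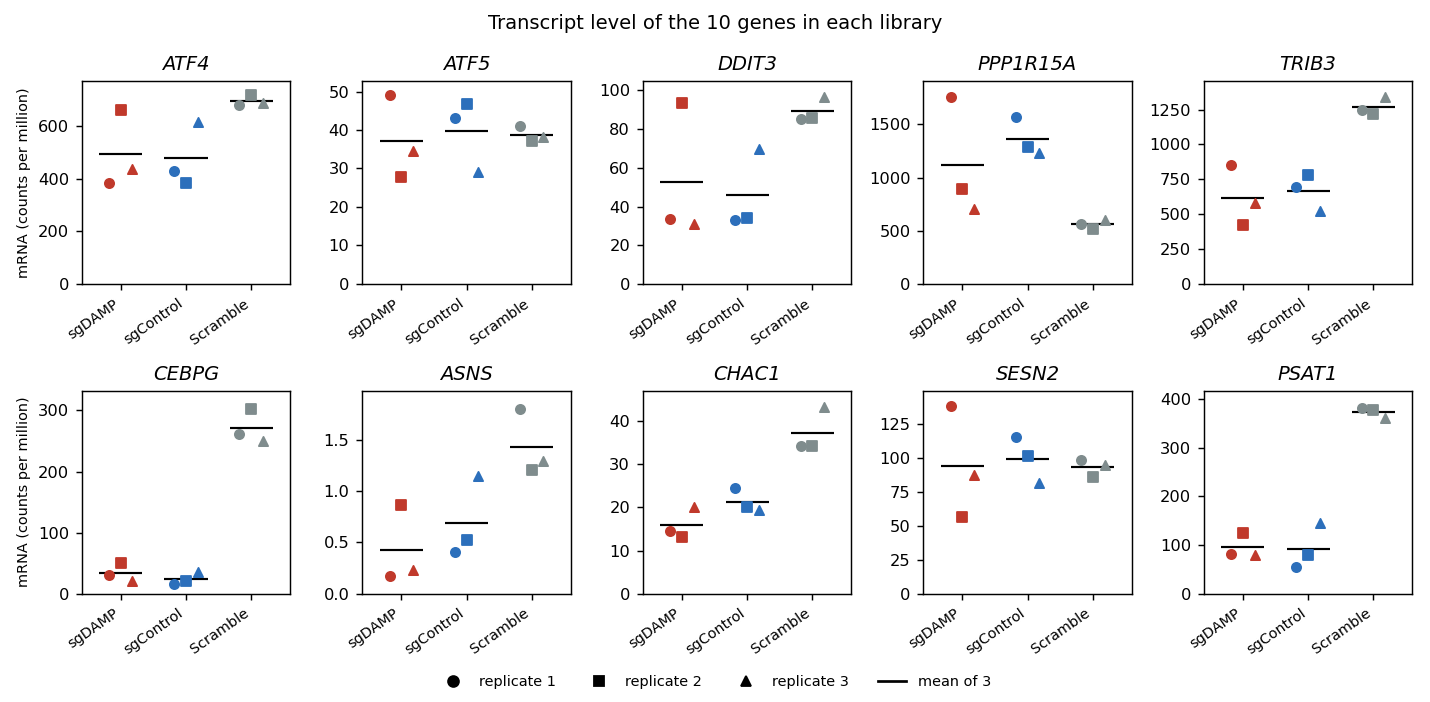
mRNA level of each gene in CPM (vertical axis, from 0) in each library of sgDAMP, sgControl and Scramble cells, with the line at the mean of 3 libraries. The sgDAMP and sgControl ranges overlapped for all 10 genes, while Scramble lay apart and higher for ATF4, TRIB3, CEBPG, ASNS, CHAC1 and PSAT1 and apart and lower for PPP1R15A. The share of all genes with Scramble apart was not computed.

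Within the 6 sgDAMP and sgControl mRNA libraries 8 of the 10 genes had their extreme values in the same 2 libraries, 1 of each condition. Replicate 2 of sgDAMP and replicate 3 of sgControl held the highest pair of values for 5 genes: ATF4, DDIT3, CEBPG, ASNS and PSAT1. The same pair of libraries held the lowest pair of values for 3 genes: ATF5, TRIB3 and SESN2. PPP1R15A and CHAC1 had their lowest pair in 2 sgDAMP libraries. Over all 14032 genes tested these 2 libraries held the highest pair in 22.9% and the lowest pair in 19.4%, and their deviations from the group means correlated at 0.767, so the pattern is shared well beyond the 10 genes. The highest library exceeded the lowest 1.73-fold for ATF4, 1.76-fold for ATF5, 1.87-fold for CHAC1, 2.03-fold for TRIB3 and 2.44-fold for SESN2. The same ratio was 2.51 for PPP1R15A, 2.66 for PSAT1, 3.04 for DDIT3 and for CEBPG, and 6.56 for ASNS. That of ASNS sets 20 counts against 3, so counting error weighs heavily in it. ASNS was below the filter and is not among the 14032 genes. The labels give no batch for these libraries, and what sets the 2 apart was not tested.

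**Figure D3:**
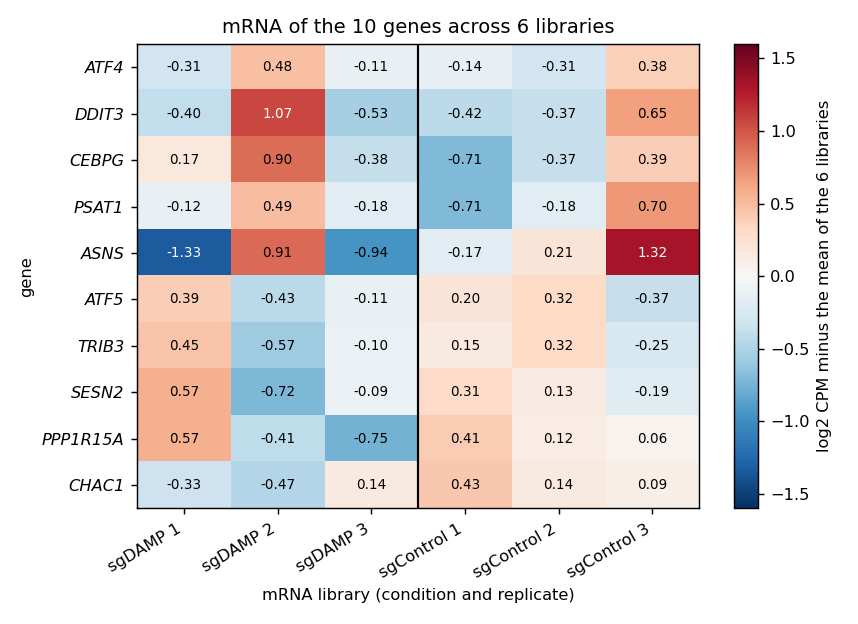
log2 CPM of each gene (rows) minus its mean over the 6 mRNA libraries (columns, sgDAMP left of sgControl), red above and blue below the mean. ATF4, DDIT3, CEBPG, PSAT1 and ASNS are red in replicate 2 of sgDAMP and replicate 3 of sgControl, where ATF5, TRIB3 and SESN2 are blue.

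The transcripts whose profile over these 6 libraries was most like that of ATF4 were not other members, which were few among the genes ranked. Likeness was the root-mean-square difference of log2 CPM after centring each gene. It was ranked over 7256 protein-coding genes that were counted in all 6 libraries and whose mean CPM had a log2 of 3 or more. This measure counts the size of the swing as well as its shape, and DDIT3, CEBPG and PSAT1 had a wider span than ATF4. The nearest were PFDN2, a prefoldin subunit (0.031), MIPEP, a mitochondrial peptidase (0.060), RPA2, a subunit of replication protein A (0.061), ZSWIM7, a zinc finger protein (0.062), and TMEM11, a mitochondrial inner membrane protein (0.063). PFDN2 stood at 93.1, 169 and 105.5 CPM in sgDAMP and 107, 92.6 and 148 CPM in sgControl, with its highest pair in the same libraries as ATF4. Of the members PSAT1 came nearest, at rank 1167 (0.29), then DDIT3 at rank 1720 (0.34) and CEBPG at rank 2025 (0.36). SESN2 was the farthest, at rank 6359 (0.70). Leaving out both of those libraries put the log2 change of DDIT3 at -0.23 and that of PSAT1 at 0.13, each with the sign turned.

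Footprints relative to mRNA were tested as the interaction of assay and condition in 1 edgeR model, with the spread taken from the mRNA libraries and the summed footprint samples assumed to vary like them. ATF4 had a log2 difference of -2.61 between sgDAMP and sgControl (SE 0.64, unadjusted p = 0.000802), and its adjusted p of 0.219 over 19357 genes missed the threshold. The model called 50 genes (0.258%), 6 higher and 44 lower, and 0 of the 10 members. Over 22 alternatives the difference of ATF4 kept its sign, its adjusted p ran from 0.000486 to 0.531, and it passed in 6. It passed with the footprint libraries entered as replicates (-2.62, SE 0.32), with DESeq2, without the filter, and without replicate 3 of sgControl mRNA. The libraries entered as replicates differ by little more than sampling noise, so that fit treats repeat sampling as replication.

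The other members lay nearer to 0 and none passed in any alternative run. SESN2 stood at 1.29 (SE 0.69), DDIT3 at 1.40 (SE 1.003), TRIB3 at 0.86 (SE 0.65) and PPP1R15A at 0.56 (SE 0.67). CEBPG stood at -0.67 (SE 0.71), ASNS at -0.87 (SE 1.501), CHAC1 at -0.27 (SE 0.66), PSAT1 at -0.21 (SE 0.68) and ATF5 at -0.03 (SE 0.66). Their adjusted p was 0.999 or above, and the SEs are too wide to show that any of these genes did not change.

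**Figure D4:**
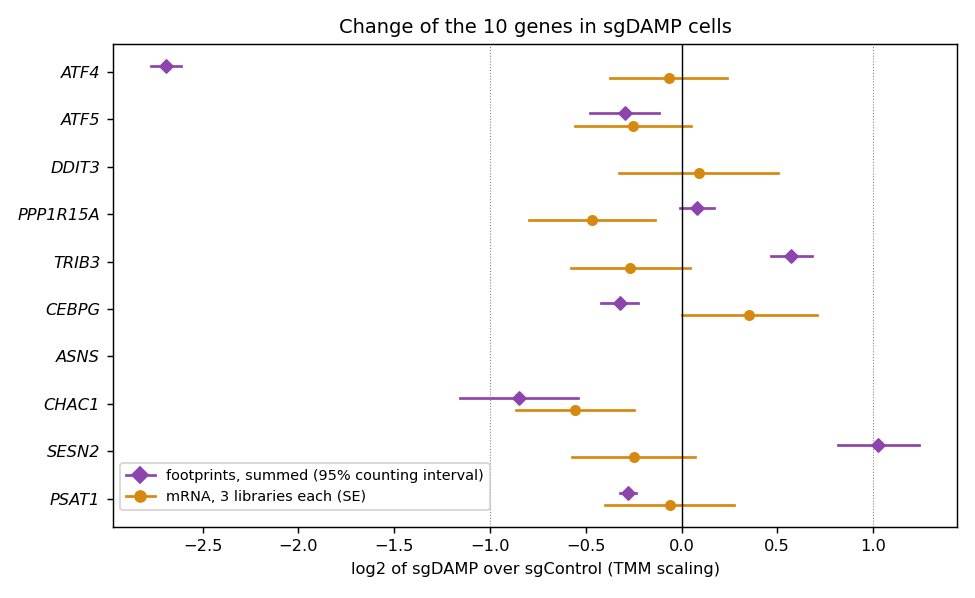
log2 of sgDAMP over sgControl (horizontal axis) for each gene, as summed footprints with their 95% counting interval (diamonds) and as mRNA with the SE over 3 libraries per group (circles); dotted lines mark 2-fold. ATF4 footprints stand at -2.69 and its mRNA at -0.07; DDIT3 footprints and ASNS in both assays were below the filter and have no symbol.

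Within each condition the ratio of footprints to mRNA places a gene among the coding genes counted at least 50 times in each assay (8705 in sgDAMP, 8307 in sgControl and 1880 in Scramble). In log2 units from the median of those genes ATF4 stood at -2.56 in sgDAMP (95% counting interval -2.63 to -2.49, percentile 15.9), at -0.02 in sgControl (-0.06 to 0.01, percentile 49.6) and at -5.19 in Scramble cells, there from 17 footprints. ATF4 mRNA was thus as occupied as the median coding gene in sgControl and well below it in sgDAMP. In Scramble cells the median comes from the few genes that reached 50 footprints in shallow libraries. ATF4, PPP1R15A, CEBPG and SESN2 (17, 37, 8 and 4 footprints) were under that minimum, so a low place there was partly set in advance. The Scramble interval of ATF4 was -5.97 to -4.51, and that of SESN2 was -6.25 to -3.01. Scramble values are not read against the other conditions. SESN2 stood at -1.63 in sgDAMP, -2.95 in sgControl and -4.37 in Scramble. TRIB3 stood at -2.73 in sgDAMP, -3.62 in sgControl and -4.18 in Scramble, among the less occupied transcripts in each. PPP1R15A was lower still in sgDAMP (-3.28) and sgControl (-3.86), with -3.76 in Scramble. PSAT1 and CEBPG were above the median in sgDAMP and sgControl cells, PSAT1 at 2.37 in sgDAMP and 2.49 in sgControl, CEBPG at 1.36 in sgDAMP and 1.95 in sgControl. In Scramble cells both stood below the median, PSAT1 at -2.19 and CEBPG at -4.93. ATF5 stood at -0.60 in both sgDAMP and sgControl, and CHAC1 at -1.11 in sgDAMP and -0.90 in sgControl. DDIT3 stood at -5.12 in sgDAMP and -6.62 in sgControl, from 29 and 10 footprints. Both counts were under the minimum of 50 footprints for the reference genes, so its low place was partly set in advance. DDIT3 also overlaps MARS1, and the part of this overlap in its ratio was not tested.

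**Figure D5:**
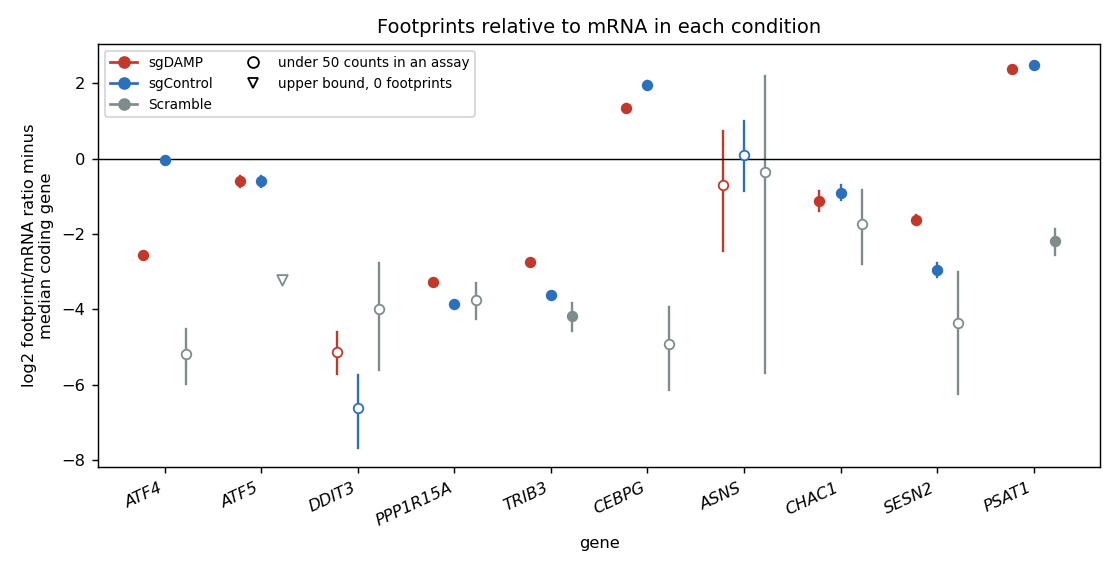
log2 ratio of footprints to mRNA for each gene minus that of the median coding gene (vertical axis, 0 is the median) in sgDAMP, sgControl and Scramble cells, with 95% counting intervals; open symbols have under 50 counts in an assay and the triangle is an upper bound from 0 footprints. ATF4 lies at -2.56 in sgDAMP and -0.02 in sgControl.

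The Scramble mRNA levels are given beside those of sgDAMP and sgControl cells without a test, because their libraries differ in depth and composition. CEBPG mRNA stood at 261, 302 and 251 CPM, 9.40 times the mean of the 6 sgDAMP and sgControl libraries. PSAT1 stood at 381, 378 and 362 CPM (3.97 times) and ASNS at 1.80, 1.21 and 1.29 CPM (2.58 times). CHAC1 stood at 34.3, 34.2 and 43.4 CPM (2.001 times), TRIB3 at 1246, 1216 and 1339 CPM (1.98 times) and ATF4 at 681, 718 and 689 CPM (1.43 times). These values lay above those of every sgDAMP and sgControl library, those of ASNS from only 21, 15 and 14 counts. PPP1R15A stood at 566, 516 and 603 CPM, below all 6 of those libraries (0.454 times). The share of all genes whose Scramble mRNA lies apart in this way was not computed, so lying apart does not mark out the members. ATF5 (41.1, 37.1 and 38.2 CPM), DDIT3 (85.4, 86.0 and 96.6 CPM) and SESN2 (98.5, 85.4 and 94.5 CPM) overlapped with the sgDAMP or sgControl libraries. Between 54.0% and 54.3% of the Scramble mRNA reads were assigned to no gene, against 22.2% to 24.2% in the other mRNA libraries, and the part of this in the levels was not tested.

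In Scramble cells most of these transcripts had few footprints, in shallow libraries. Of the 9 members tested in edgeR, 8 were lower in footprints than in mRNA and 0 higher, where 6419 of 14432 genes (44.5%) were called, 3955 lower (27.4%) and 2464 higher. The filter on low counts ran over both assays together. ATF5, DDIT3, CEBPG, CHAC1 and SESN2, with few or no footprints, passed it only through their mRNA libraries. Their direction was thus largely set by the filter, and their p-values are no separate evidence for it. With at least 10 counts in every library only PSAT1 was left, and it was called lower. The median of the 9 was -3.33, against -0.68 over all genes tested. This median and the count of 8 include genes that entered only through their mRNA. Neither is read as a result about the members. ATF5 had 0 footprints in all 3 libraries against 1355 mRNA counts, at least 45.5-fold lower in CPM with a floor of 3 counts over the group. Relative to the median coding gene, which itself lies at -1.98 on this log2 scale in Scramble cells, the counting interval bounds the log2 ratio of ATF5 at -3.23, a smaller difference. SESN2 had 3, 1 and 0 footprints (log2 difference -3.49, SE 0.52) and DDIT3 had 1, 0 and 4 (-3.10, SE 0.55). Without footprint replicate 1 SESN2 came to -4.74, and without footprint replicate 3, which holds 4 of its 5 footprints, DDIT3 came to -5.19. PPP1R15A, with 18, 10 and 9 footprints, stood at -2.87 (SE 0.29, adjusted p = 4.72e-09). PSAT1, with 34, 24 and 15 footprints, was nearest to the median gene among the 8 called (-1.30, SE 0.23, adjusted p = 5.63e-05). CHAC1, with 7, 3 and 0 footprints, stood at -0.85 (SE 0.52, adjusted p = 0.177) and did not pass. It came to -1.85 without footprint replicate 1, and it passed with total-count scaling (-3.70, adjusted p = 3.29e-06) and with TMM within each assay (-3.80, adjusted p = 6.50e-09), its adjusted p over 14 alternatives running up to 0.407. ATF4, with 8, 6 and 3 footprints, stood at -4.31, CEBPG, with 3, 4 and 1, at -4.03, and TRIB3, with 27, 27 and 8, at -3.33. ASNS, with 0, 1 and 0 footprints, was below the filter. The depth of 523652 coding footprints in all leaves most members under 20 counts. The zero point depends on the scaling here: total-count scaling moved the median gene by -2.84 on the log2 scale and called 13050 genes lower and 481 higher.

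The wider pathway was described with 72 other genes in 8 lists. In mRNA 0 of 71 tested genes passed between sgDAMP and sgControl, and in footprints relative to mRNA 0 of 71 did. In footprints 2 of 67 were at least 2-fold higher and 1 at least 2-fold lower (4.48%), beside 9.87% of all genes. The share over all genes depends on the filter: with at least 10 counts in every library 539 of 10937 genes reached 2-fold. The lists are therefore not read as lying below the background. All 3 called genes of the lists belong to the 9 tested secreted and death-related targets. TNFRSF10B, the death receptor DR5, had 1113 footprints in sgDAMP and 475 in sgControl (ratio 2.27, 2.04 to 2.54). BBC3, the BH3-only protein PUMA, had 38 in sgDAMP and 15 in sgControl (2.46, 1.32 to 4.81). VEGFA, the angiogenic growth factor, had 605 in sgDAMP and 1233 in sgControl (0.476, 0.431 to 0.525). The 7 eIF2 kinases and their activators, the 14 subunits of eIF2, eIF2B and its phosphatases, and the 13 tested aminoacyl-tRNA synthetases and tRNA export genes had 0 called in either direction. Their median log2 footprint ratios were 0.12, 0.38 and 0.05. Serine, glycine and one-carbon enzymes had a median of -0.27 over 6, other amino acid synthesis enzymes -0.08 over 6 and amino acid transporters -0.11 over 7, again with 0 called.

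In Scramble cells 34 of the 71 tested genes of these lists were lower and 13 higher in footprints than in mRNA (66.2%, beside 44.5% of all genes). The filter again ran over both assays, so genes with few footprints could enter through their mRNA alone and hardly be called higher. Of the serine, glycine and one-carbon enzymes 6 of 7 were lower, with PHGDH, which opens serine synthesis, at -2.37 (SE 0.39) and MTHFD2, the mitochondrial folate enzyme, at -2.12 (SE 0.30). SHMT1, the cytosolic serine hydroxymethyltransferase, was higher at 1.41 (SE 0.32). Of the synthetase and tRNA export genes 9 of 13 were lower, led by XPOT, the tRNA exporter, at -2.89 (SE 0.32). The stress transcription factors CEBPB (-2.01, SE 0.28) and ATF3 (-3.42, SE 0.59) were among 4 of 6 lower. Of the secreted and death-related targets 5 of 9 were lower, with GDF15, a stress cytokine, at -2.63 (SE 0.30), and 2 higher, with ERO1A, an oxidase of the endoplasmic reticulum, at 2.09 (SE 0.17). The amino acid transporters split 3 lower and 2 higher of 8, with SLC7A5 at -1.94 (SE 0.27) and SLC38A2 at 1.92 (SE 0.24). The eIF2 and eIF2B group split 4 lower and 6 higher of 14, with EIF2S3 at -1.15 (SE 0.24) and EIF2B4 at 1.61 (SE 0.29), and the 7 eIF2 kinases and activators had 0 called.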

How the data were processed

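The 18 libraries form 6 groups of 3 (footprints and poly(A) mRNA of NCI-H1975 cells in 3 conditions). The deposited values are raw counts per gene (61487 genes and 5 closing lines on unassigned reads). HTSeq 0.11.2, HISAT2 2.1.0, Trimmomatic 0.30, SAMtools 1.10, edgeR and the build GRCh38 are named per the submitters' processing notes. The strand setting, the overlap mode and the treatment of multi-mapping reads were not given in the sources used here. Reads assigned to no gene (69.7% to 70.0% of sgDAMP, 65.8% to 66.4% of sgControl and 95.7% to 95.8% of Scramble footprints) were left out. Symbols and positions came from RefSeq GRCh38.p14 and a symbol table that matched 61369 genes.

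From the counts, genes were filtered with filterByExpr (minimum count 10), scaled by the trimmed mean of M values (TMM; within each assay, except over both in Scramble cells) and tested two-sided by the quasi-likelihood F test (edgeR 4.0.16, R 4.3.3), with Benjamini-Hochberg adjustment over all genes tested and a threshold of 0.05. The edgeR script was tested on simulated data. Summed sgDAMP and sgControl footprints have exact Clopper-Pearson 95% intervals and no p-value; PCR copies were not marked by molecular identifiers, so these intervals and the floor of 3 counts reflect counting error alone. CPM uses all gene counts of a library. Alternatives used DESeq2 1.42.0, limma 3.58.1, other scalings and filters, a replicate block, a joint fit with Scramble mRNA, and leaving out each library; leaving out both mRNA libraries with high ATF4 was chosen after seeing the data.

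The members, lists and tests were chosen with earlier results of these data known. All 10 members were to be named in each comparison; of each pathway list, up to 2 called genes in each direction with the smallest p (footprints: largest fold) and at least 50 counts could be named.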

Additional observations from a re-analysis of the deposited data

How the results depend on the processing

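Same-numbered mRNA libraries of sgDAMP and sgControl correlated from -0.562 to 0.457 in their deviations, so the numbers do not pair the samples of that comparison; those of Scramble and sgDAMP mRNA, which were not compared by a test, correlated at 0.260 to 0.376. With a replicate block 0 genes were called in mRNA (DDIT3 at -0.0583) and 4703 in Scramble cells. With libraries as replicates and the block, 6967 genes and 7 members passed in footprints (6959 and 7 without the block) and 215 genes and 1 member in the interaction (ATF4 -2.62, adjusted p = 0.00225; 451 genes without the block). In mRNA ATF4 turned to 0.0359 and 0.0514 and PSAT1 to 0.0316 and 0.0457 with upper-quartile and total-count scaling, DDIT3 to -0.0464 with limma-voom, and without both high-ATF4 libraries DDIT3 to -0.23 and PSAT1 to 0.13. Genes called in mRNA were 14 without the filter, 21 with DESeq2 and 1 in the joint fit. Leaving out each library gave 0 to 6 genes, with ATF4 at -0.34 to 0.11, DDIT3 at -0.63 to 0.42, CEBPG at -0.0657 to 0.63, SESN2 at -0.56 to 0.00427 and PSAT1 at -0.32 to 0.31. In footprints 9259 genes and 4 members (DDIT3 and ASNS added) reached 2-fold without the filter, 539 genes with at least 10 counts in every library, and 6959 genes and 7 members passed as replicates. Leaving out a library gave 1 to 2 members. In the interaction ATF4 passed without the filter (-2.63, adjusted p = 0.0362), with DESeq2 (-2.59, adjusted p = 0.0131), as replicates (-2.62, adjusted p = 0.000486; 451 genes, 1 member) and without both high-ATF4 libraries (-2.53, adjusted p = 0.0142); limma-voom called 176 genes. ATF5 turned to 0.0121 with total-count scaling and 0.000926 without those 2 libraries. Leaving out each library gave 0 to 1 members, ATF4 at -2.82 to -2.36, PSAT1 at -0.60 to 0.0247, ATF5 at -0.21 to 0.20, ASNS at -1.35 to 0.14 and CHAC1 at -0.45 to 0.0124. In Scramble cells 13531 genes were called with total-count scaling, 13860 with TMM within each assay and 1144 with at least 10 counts in every library, where 1 member was tested and 1 called. The ATF4 ratio stood at -2.30 or -3.02 in sgDAMP and 0.30 or -0.38 in sgControl with minimums of 10 or 200 counts, and at -4.47 in Scramble with 10. Leaving out each library put it at -2.80 to -2.26 in sgDAMP and -0.31 to 0.28 in sgControl, the highest values being those without the mRNA library with the most ATF4 (sgDAMP replicate 2, sgControl replicate 3). Depth limits DDIT3 and ASNS footprints, and in Scramble cells most members.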
